A study of Mus musculus with 26 samples.

Results

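The replication-dependent histone genes, those whose symbol begins with Hist1h, Hist2h, Hist3h or Hist4h, numbered 67 of the 30406 genes listed for every library, matched by Ensembl identifier. They comprised 6 genes for the linker histone H1, 18 for H2A, 18 for H2B, 12 for H3 and 13 for H4. Levels were measured by droplet single-cell and single-nucleus RNA-seq in 26 libraries of mouse primary somatosensory cortex from C57Bl/6N embryos or pups whose dams received saline or the viral mimic poly(I:C), which causes maternal immune activation (MIA), by intraperitoneal injection at E12.5. Of these, 18 libraries held wild-type microglia sorted as Cd11b+, Cx3cr1+ and Cd45 low. They came from E13.5 (3 saline, 3 MIA), E15.5 (3 saline, 3 MIA) and P14 (4 saline, 2 MIA), with embryos of mixed sex pooled within a library, and P14 saline replicates 3-female and 3-male carried the same replicate number. The other 8 libraries held nuclei sorted from flash-frozen cortex of male E15.5 embryos, wild-type or Csf1r-/- (lacking the receptor that microglia need to survive), after saline or MIA, with 2 libraries per group and 1 to 2 embryos per library. Age went together with the day of dissection, so that they cannot be told apart.

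The analysis kept 59391 microglia (250 to 5440 cells and 5759712 to 94710704 UMIs per library) and 41532 nuclei (4384 to 5890 nuclei and 9130111 to 16466415 UMIs per library). All 67 genes had at least 1 UMI. Hist1h2bq, Hist1h2ba, Hist1h2aa and Hist1h4m had 1, 1, 7 and 8 UMIs in all 26 libraries together. The 12 microglial markers summed to 23973 to 71911 CPM (UMIs per 1000000 UMIs of a library) in the sorted libraries, 7 pan-neuronal genes to 60.8 to 1096 (highest in E15.5 saline replicate 1) and 7 red blood cell genes to 3.75 to 1494 (highest in P14 saline replicate 3-female). Cell barcodes recurred between microglia libraries. Over all 325 pairs of libraries the median share of the smaller library was 0.1625%, but 70.1% of the barcodes of E13.5 MIA replicate 2 (263 of 375), 48.6% of E13.5 MIA replicate 1 and 17.0% of E15.5 MIA replicate 3 were also in another microglia library. The sharing crossed age and treatment. P14 saline replicate 3-female held 68.8% of the barcodes of E13.5 MIA replicate 2, and P14 MIA replicate 1 held 47.5% of those of E13.5 MIA replicate 1. No fit held these sets of libraries as a term. Of dividing-like cells, 29 of 42 in P14 saline replicate 3-female and 27 of 43 in replicate 3-male had more UMIs under the same barcode in another library, as did 113 of 238 in E15.5 MIA replicate 3. The sums, shares and main tests are therefore also given with each shared barcode kept only in the library with most of its UMIs, an alternative chosen after the data were seen, while the levels of single genes hold all cells unless stated. Among the nuclei, the libraries labelled wild-type MIA replicate 2 and Csf1r-null saline replicate 2 went against their labels, with 0 and 10 Csf1r UMIs against 11 to 23 in the other wild-type and 1 to 4 in the other Csf1r-null libraries. Their 46 and 194 UMIs for 11 microglial genes likewise lay on the side of the other genotype (265 to 463 in the other wild-type and 60 to 90 in the other null libraries), so the medians, counts and main genes of the nuclei comparisons are given with and without both.

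Replication-dependent histone genes supply the proteins that package newly copied DNA: H2A, H2B, H3 and H4 form the core around which DNA is wrapped, and H1 binds the linker between cores. Their canonical mRNAs are made in S phase and end without a poly(A) tail in a conserved stem-loop bound by SLBP, and NPAT activates their transcription. Oligo-dT priming, used for all these libraries, reads such transcripts only where they carry a poly(A) tail or an internal run of A, so the values below are levels of captured 3′ ends, in CPM of the library or cell class (transcript length does not enter), and not total histone mRNA.

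The annotated 3′ ends are described next, and their part in what was captured was not tested. A 16-base sequence with a 6-pair stem was found after the stop codon in 44 of the 67 genes, out of 52 with annotated sequence there (GENCODE M21, GRCm38/mm10). The sequence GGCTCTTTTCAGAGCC occurred in 26 genes, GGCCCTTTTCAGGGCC in 7 and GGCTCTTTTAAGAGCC in 6. Genes were classed by the annotated transcript that ran farthest past the stem-loop. In 22 genes it ended within 100 bases of the stem-loop, in 22 it ran farther, and in 23 no stem-loop was found. The 30-base windows of the genes on which the results turn are shown with the stem-loop in capitals and 12 bases before it, where Hist1h2ap, the H2A gene with the highest mean in E13.5 microglia, has an unbroken run of 12 A:
Hist1h2ap: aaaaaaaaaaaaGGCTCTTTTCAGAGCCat
Hist1h2ae: aaaaaaaacaaaGGCTCTTTTCAGAGCCat
Hist1h1e: caacaacccaaaGGCTCTTTTCAGAGCCac
Hist1h3c: tatttaaaaaaaGGCTCTTTTAAGAGCCac
Hist1h4d: ccaaaaaccaaaGGCCCTTTTCAGGGCCac
Hist3h2a: acagacaccaaaGGCTCTTTTCAGAGCCac
Hist3h2ba: ccccaacccaaaGGCTCTTTTCAGAGCCac
Hist2h3c1: attccccacaaaGGCTCTTTTCAGAGCCac
The annotated transcript of Hist1h2ap (chr13:21833026-21833507, minus strand) ended 3 bases after the stem-loop and that of Hist1h3c (chr13:23744973-23745602, minus) 74 bases after it. It ran on for 151 bases in Hist1h2ae (chr13:23570517-23571220, minus), 169 in Hist3h2ba (chr11:58948920-58949533, plus), 770 in Hist1h4d (chr13:23581598-23582735, plus), 1153 in Hist1h1e (chr13:23620629-23622558, minus) and 1643 in Hist3h2a (chr11:58954685-58956830, plus). Hist2h3c1 (chr3:96246685-96248509, plus) had 2 transcripts that ended 1162 and 1167 bases beyond the loop. These are single-exon genes, and each window lies in the 3′ untranslated part of that exon. Hist1h1b (chr13:21779883-21780625, minus) had no annotated sequence after its stop codon, and no stem-loop was found in Hist1h2bc (chr13:23684199-23692908, plus).

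On chromosome 13 lay 54 of the genes, 10 on chromosome 3, 2 on chromosome 11 and 1 on chromosome 6. Sequence was shared widely: 58 genes had at least 1 window of 90 bases identical to another member, and in 26 at least 50% of windows were shared. Hist1h2ap shared 92.4% of its windows with other members, most of them with Hist1h2ao. Reads of these genes could thus have been split or discarded in counting, and their values are uncertain. Hist1h1b and Hist3h2ba shared 0.0%. An exon of another gene overlapped 7 members on the same strand and 21 on the opposite strand.

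Promoter windows, from 250 bases before to 50 after the start, were matched for 62 of the 67 genes (RefSeq, GRCm38.p6). Those of Hist1h1b, the H1 gene with the highest level in embryonic microglia, and of the H2A gene Hist1h2ae are shown. Capitals mark matches on either strand to CCAAT (the NF-Y motif), to the TATA box in the form TATAAA, to the octamer known from H2A and H2B promoters in the form ATTTGCAT, and to the H1 box AAACACA:
Hist1h1b, chr13:21780576-21780875, minus strand: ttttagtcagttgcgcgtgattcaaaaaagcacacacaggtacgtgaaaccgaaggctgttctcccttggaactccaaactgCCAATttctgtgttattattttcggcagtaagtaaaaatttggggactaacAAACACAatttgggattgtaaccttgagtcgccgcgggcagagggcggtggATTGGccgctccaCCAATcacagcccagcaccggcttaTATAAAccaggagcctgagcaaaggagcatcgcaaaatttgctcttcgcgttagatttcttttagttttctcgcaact
Hist1h2ae, chr13:23571171-23571470, minus strand: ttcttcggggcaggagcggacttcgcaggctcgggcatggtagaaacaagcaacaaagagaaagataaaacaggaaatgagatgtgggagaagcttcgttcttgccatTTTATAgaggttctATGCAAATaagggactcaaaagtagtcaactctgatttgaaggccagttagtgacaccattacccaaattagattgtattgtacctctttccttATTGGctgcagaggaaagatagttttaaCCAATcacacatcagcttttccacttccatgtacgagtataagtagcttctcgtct
The octamer was in 7 of 18 H2A promoters (38.9%), 6 of 16 H2B promoters (37.5%) and none of the others, against 1.74% of all 32851 promoters of this length. CCAAT was in every H1, H2A, H2B and H3 promoter but in 3 of 12 H4 promoters (25%), against 37.4% of all promoters. TATAAA was in 56.5% against 13.6%, and the H1 box in 5 of 6 H1 promoters (83.3%) against 7.18%. These are matches of letters, and no binding was measured. In the Hist1h2ae window the TATAAA and octamer matches lie on the opposite strand, so they may belong to a gene that starts there in the other direction. Neighbouring genes on opposite strands can share a window, so the counts by family need not be independent.

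Captured histone mRNA was highest in microglia at E13.5 and lowest at P14. The 67 genes summed to 3298, 3161 and 4110 CPM in the E13.5 saline libraries, 2156, 1235 and 940 at E15.5, and 415, 530, 480 and 473 at P14. The saline libraries of the 3 ages did not overlap, and E15.5 saline replicate 1 lay above the other E15.5 libraries. After MIA the sums were 2266, 3505 and 3312 at E13.5, 623, 1405 and 1053 at E15.5, and 546 and 358 at P14. With each shared barcode kept in 1 library, the P14 saline sums were 416, 531, 376 and 403 and E15.5 MIA replicate 3 had 886. In these sums over all cells, fewer dividing cells and less RNA per cell cannot be told apart.

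**Figure D1:**
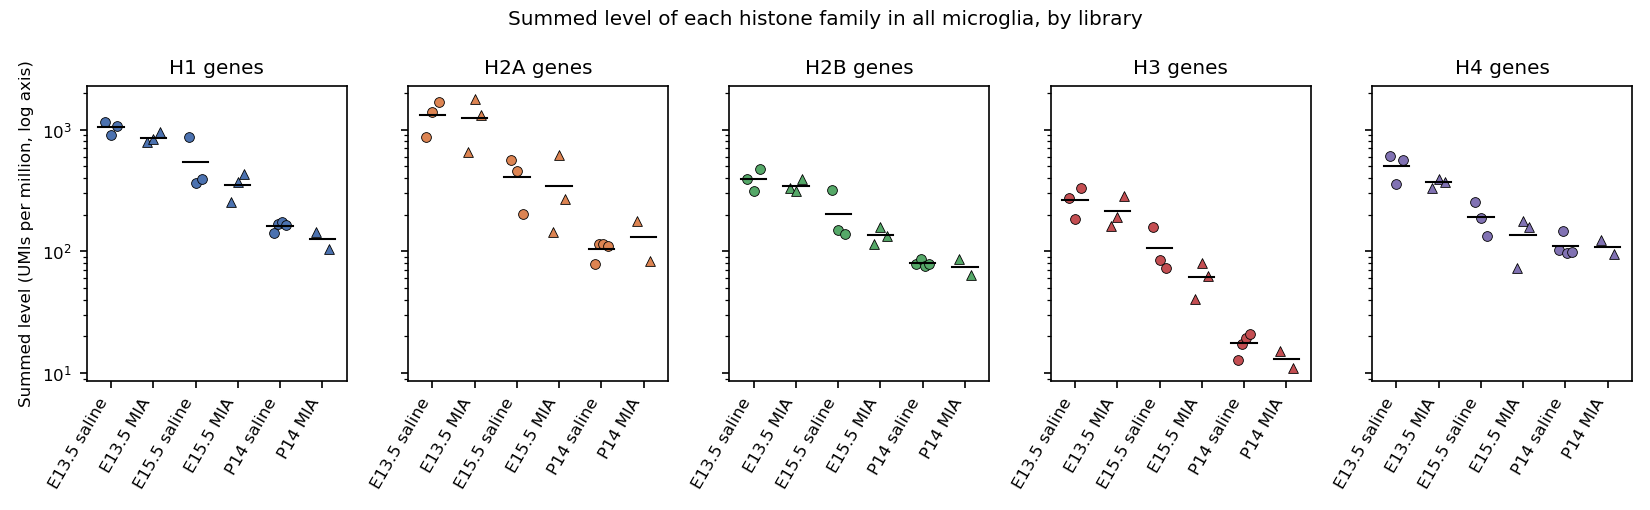
Summed CPM, on a log axis, of the replication-dependent histone genes of each family (H1, H2A, H2B, H3, H4) in every microglia library, by age and treatment, with circles for saline and triangles for MIA libraries and lines for group means. Saline means are lower at each later age in each family, for H1 from 1046 to 538 to 161 and for H3 from 262 to 106 to 17.7.

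All families followed this order, with different proportions. Summed H2A was 1317 ± 412 (SD, n = 3) CPM in E13.5 saline microglia, 405 ± 184 (n = 3) at E15.5 and 105 ± 17.7 (n = 4) at P14. Summed H1 was 1046 ± 131, 538 ± 280 and 161 ± 13.6. Summed H4 was 506 ± 128, 192 ± 60.5 and 111 ± 23.2, H2B was 393 ± 81.4, 203 ± 101 and 79.6 ± 4.56, and H3 was 262 ± 73.5, 106 ± 46.9 and 17.7 ± 3.59. The mean over saline libraries was thus highest for H2A at E13.5 and for H1 at the later ages, but not in every library: H1 exceeded H2A in E13.5 saline replicate 1 (1161 against 868.3), and H2A exceeded H1 in E15.5 saline replicate 2 (452 against 361).

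Of the 67 genes, 62 passed the low-count filter of the age comparison (edgeR quasi-likelihood test over all 18 microglia libraries, Benjamini-Hochberg adjusted p below 0.05 over all genes). From E13.5 to E15.5 in saline libraries 32 fell and 2 rose, where 11.1% of all genes tested fell and 13.7% rose. Their median log2 change was -1.18, against 0.04 over all genes. From E15.5 to P14, 55 fell and 1 rose, where 26% of all genes fell and 24.8% rose, with a median of -2.85 against 0.03. With shared barcodes kept once the counts were 34 lower and 2 higher, then 55 lower and 1 higher. The first count rested on few libraries: it was 44 in either direction without E15.5 saline replicate 1, but 16 without E13.5 saline replicate 3, 22 without E15.5 saline replicate 2 and 15 without E15.5 saline replicate 3.

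**Figure D2:**
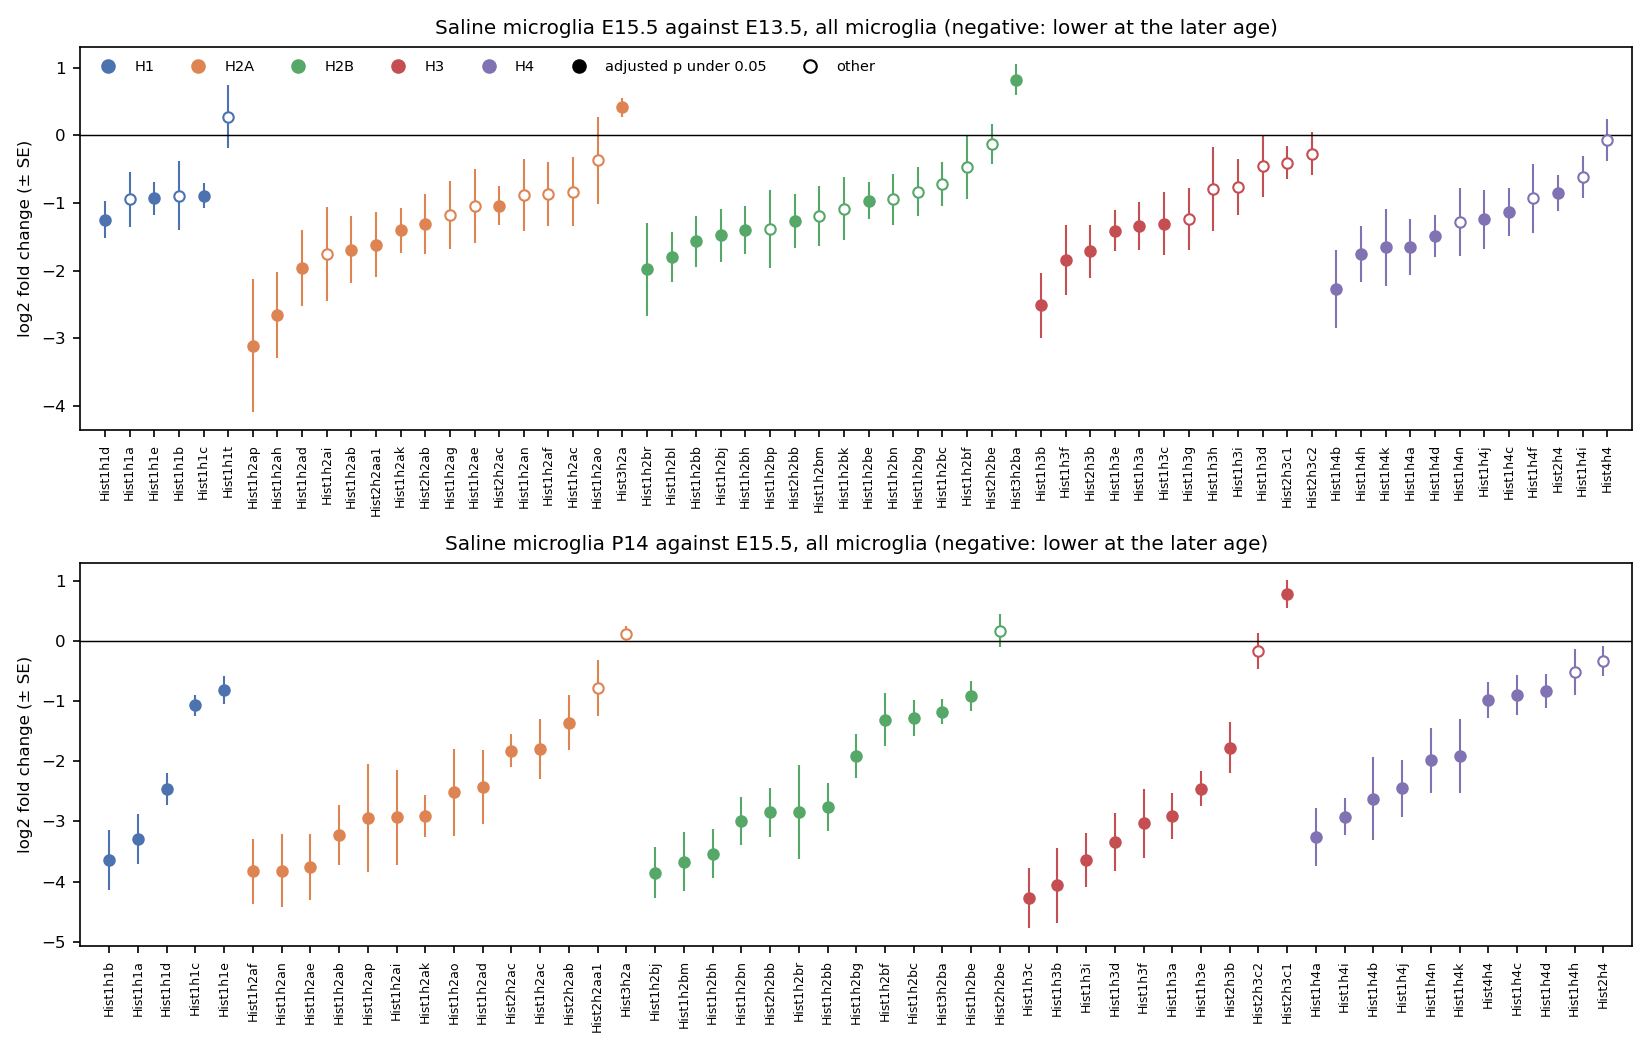
Log2 change of each histone gene between saline microglia of neighbouring ages, grouped by family, with bars for the standard error, filled points for adjusted p below 0.05 and open points for the rest. The top panel (E15.5 against E13.5) holds 62 genes and the lower panel (P14 against E15.5) 53, since 9 genes with under 10 UMIs in the P14 saline libraries are left out.

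The linker histone genes fell by unequal amounts to P14. Hist1h1b, which the study used as a marker of proliferating microglia, was at 649, 531 and 487 CPM in the E13.5 saline libraries, 499, 173 and 204 at E15.5, and 17.5, 10.8, 48.5 and 35.9 at P14. The higher P14 values were those of replicates 3-female and 3-male and became 17.8 and 15.2 with shared barcodes kept once. Its log2 change was -0.89 ± 0.51 (SE) from E13.5 to E15.5 (edgeR adjusted p = 0.208; -1.54 and past the threshold without E15.5 saline replicate 1) and -3.64 ± 0.50 to P14 (adjusted p = 1.59e-05; -4.48 ± 0.43 with shared barcodes kept once). Hist1h1e, another main somatic H1 gene, was at 280, 196 and 341, then 203, 108 and 109, then 89.9, 113, 85.6 and 89.2, and fell by less to P14 (-0.82 ± 0.23, adjusted p = 0.00701). The P14 libraries therefore held more Hist1h1e than Hist1h1b ends, while at E13.5 each held more Hist1h1b.

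Hist1h1c and Hist1h1d fell at both steps. Hist1h1c was at 100, 88.9 and 107 CPM at E13.5, 72, 41.9 and 43.1 at E15.5 and 26.4 to 34.5 at P14, with log2 changes of -0.89 ± 0.18 (edgeR adjusted p = 0.00267) and -1.07 ± 0.17 (adjusted p = 6.73e-05). Hist1h1d was at 76.5, 43.9 and 78.4, then 39.8, 22.7 and 19.3, then 4.78 to 6.85, with changes of -1.25 ± 0.27 (adjusted p = 0.00411) and -2.47 ± 0.27 (adjusted p = 1.26e-06). Hist1h1a went from 54.6, 43.6 and 58.9 at E13.5 to 47.5, 14.8 and 16.8 at E15.5, without passing the test, and to 1.69 to 4.64 at P14 (-3.29 ± 0.42, adjusted p = 6.8e-06). In all, 3 of 6 H1 genes fell at the first step and 6 of 6 at the second.

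Among the H2A genes, 8 of 16 tested fell and 1 rose by E15.5, and 14 of 16 fell by P14. Hist1h2ap varied widely between libraries of the same group, at 314, 771 and 748 CPM in E13.5 saline, 68.7, 122 and 18.3 in E15.5 saline, and 5.92, 15.2, 13.3 and 8.95 in P14 saline. After MIA it was at 158, 1020 and 546, then 12.7, 287 and 42.2, then 68.7 and 9.55. It made up 1.43% to 29.2% of histone UMIs over the 18 libraries, and in each embryonic group the lowest and highest libraries differed by a larger factor than for summed histone UMIs. Its log2 change was -3.11 ± 0.98 by E15.5 (edgeR adjusted p = 0.0296), a call lost without E13.5 saline replicate 2 or 3 or without E15.5 saline replicate 1 or 3, and -2.94 ± 0.90 by P14 (adjusted p = 0.0115), a call lost without E15.5 saline replicate 2 and in other microglia (-1.32). Hist1h2ae, at 190, 344 and 481, then 262, 157 and 63.4, then 5.23 to 19.1, changed by -1.04 ± 0.55 (adjusted p = 0.174) and fell by 3.76 on the log2 scale at P14 (SE 0.55, adjusted p = 2.79e-05).

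Hist1h2ak fell at both steps, from 20.8, 13.1 and 21.6 to 8.87, 6.84 and 4.79 to 0.494 to 1.40 CPM, by -1.40 ± 0.33 (edgeR adjusted p = 0.0063) and -2.91 ± 0.35 (adjusted p = 4.39e-06). Hist1h2ag, with 8.18, 6.16 and 5.80 at E13.5 and 5.05, 2.60 and 0.816 at E15.5, had 9 UMIs in the 4 P14 saline libraries together. Hist1h2ah was low throughout, at 0.306 to 1.02 at E13.5 and 0.0263 to 0.161 at E15.5, where it fell (-2.66 ± 0.64, adjusted p = 0.00744), and had 1 UMI in P14 saline libraries. Hist3h2a on chromosome 11 went the other way, at 21.6, 24.8 and 30.4, then 29.0, 35.7 and 37.0, then 35.0, 47.3, 45.4 and 45.9. It rose by E15.5 only narrowly (log2 change 0.41 ± 0.14, adjusted p = 0.0468), a call lost in 22 of 30 alternatives, and its further change did not pass (0.12 ± 0.13, adjusted p = 0.488). Its transcript, shown above, runs far past the stem-loop.

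Among the H2B genes, 7 of 16 fell and 1 rose by E15.5, and 15 of 16 fell by P14. Hist1h2bc, the most abundant H2B gene in microglia, was at 155, 152 and 195 CPM at E13.5, 170, 62.1 and 65.8 at E15.5, and 57.5, 57.7, 41.2 and 37.3 at P14. Its log2 change by E15.5 did not pass (-0.72 ± 0.32, edgeR adjusted p = 0.107) but was -1.37 and past the threshold without E15.5 saline replicate 1, and by P14 it fell (-1.28 ± 0.30, adjusted p = 0.00179). Hist1h2bj fell to under 2.5 at P14, from 27.0, 14.2 and 10.4 at E15.5 to 0.444, 0.742, 2.32 and 2.13 (-3.86 ± 0.42, adjusted p = 1.48e-06). Hist1h2bh likewise went from 6.85, 2.76 and 2.76 to 0.247 to 0.670 (-3.53 ± 0.41, adjusted p = 2.32e-06).

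The smaller H2B genes with the strongest evidence at E15.5 were Hist1h2bl, at 2.42, 1.32 and 2.34 then 0.664, 0.450 and 0.579 CPM (-1.80 ± 0.37, edgeR adjusted p = 0.00263), and Hist1h2bb, at 19.4, 12 and 25.1 then 8.58, 6.75 and 3.24 (-1.57 ± 0.38, adjusted p = 0.00749). Hist1h2bl had 3 UMIs in the P14 saline libraries. Hist3h2ba, the H2B gene next to Hist3h2a, was at 5.92, 5.79 and 7.81, then 15.3, 8.51 and 10.1, then 5.23 to 6.48. It rose by E15.5 (0.82 ± 0.23, adjusted p = 0.0158), a call lost in 5 of 30 alternatives, among them the fit of the 12 embryonic libraries alone (0.79 ± 0.26, adjusted p = 0.0535), and fell again by P14 (-1.18 ± 0.21, adjusted p = 0.000222). Hist2h2be was the H2B gene that did not pass at P14, with 3.41, 1.93 and 2.05 at E15.5 and 3.26 to 3.46 at P14.

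Among the H3 genes, 6 of 12 fell by E15.5, and 10 of 12 fell and 1 rose by P14. Hist1h3c, the H3 gene with the highest mean in embryonic microglia, was at 98.9, 66.4 and 125 CPM at E13.5, 58.1, 28.2 and 28.3 at E15.5 and 1.28, 0.949, 3.57 and 3.56 at P14. It fell by E15.5 only narrowly (-1.31 ± 0.47, edgeR adjusted p = 0.0494), a call lost in 23 of 30 alternatives, and again by P14 (-4.28 ± 0.50, adjusted p = 2.71e-06). Hist1h3b fell from 19.8, 14.5 and 24.0 to 4.27, 4.18 and 1.55 by E15.5 (-2.51 ± 0.48, adjusted p = 0.00167) and was at 0.148 to 0.357 at P14. Hist1h3e fell from 64.0, 35.5 and 72.6 to 30.6, 19.5 and 13.2 (-1.41 ± 0.30, adjusted p = 0.00318), and Hist1h3g, at 3.55, 1.93 and 0.763 at E15.5, had 3 UMIs in the P14 saline libraries. The gene that rose by P14 was Hist2h3c1, from 2.33, 1.70 and 2.63 to 5.13, 5.24, 3.88 and 3.67 (0.77 ± 0.23, adjusted p = 0.00978), a call lost without E15.5 saline replicate 2.

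Among the H4 genes, 8 of 12 fell by E15.5 and 10 of 12 by P14. Hist1h4d was at 436, 228 and 384 CPM at E13.5, 153, 125 and 89.3 at E15.5 and 78.8, 104, 70.4 and 74.0 at P14. It fell by E15.5 (-1.49 ± 0.31, edgeR adjusted p = 0.00287) and again by P14 (-0.83 ± 0.28, adjusted p = 0.0218). The P14 call was lost with library totals and without E15.5 saline replicate 1 or P14 saline replicate 3-female or 3-male, and the change was 0.79 in other microglia. At P14 it and Hist1h1e were the histone genes with the highest levels. Hist1h4i did not pass by E15.5 (47.8, 52.6 and 51.3, then 56.4, 22 and 18.3, adjusted p = 0.156) and fell to 4.58 to 5.4 by P14 (-2.92 ± 0.31, adjusted p = 9.35e-07). Hist1h4h fell by E15.5, from 59.4, 46.0 and 72.6 to 21.5, 19.4 and 10.7 (-1.76 ± 0.42, adjusted p = 0.00639), and did not pass at P14, with 12.1, 23.9, 12.2 and 8.80. Hist1h4f, at 0.953, 0.642 and 0.447 at E15.5, had 1 UMI in the P14 saline libraries.

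**Figure D3:**
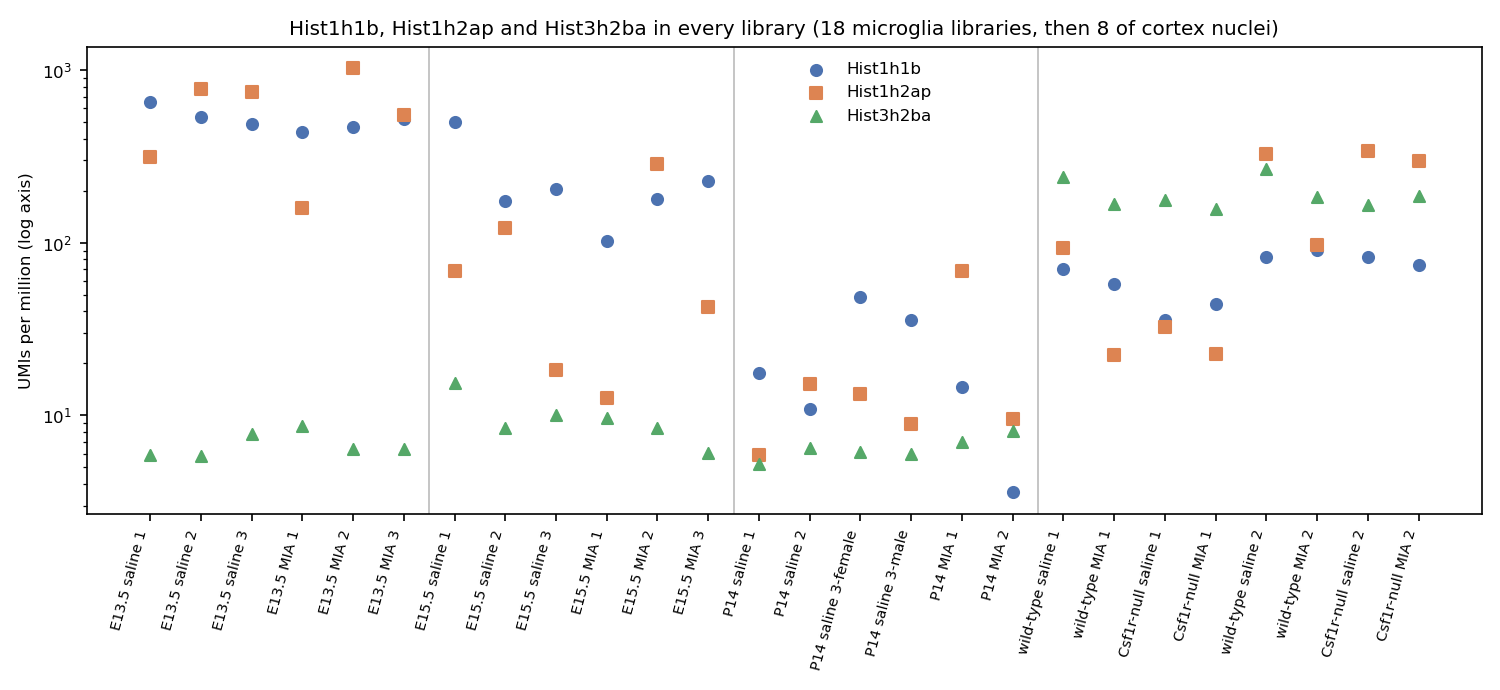
Level of Hist1h1b (circles), Hist1h2ap (squares) and Hist3h2ba (triangles) in each of the 18 microglia and 8 nuclei libraries, in CPM on a log axis, with vertical lines between the ages and before the nuclei. Hist1h1b lies at 10.8 to 48.5 in P14 saline, Hist1h2ap spreads from 12.7 to 287 among E15.5 MIA libraries, and Hist3h2ba lies at 5.23 to 15.3 in saline microglia and 157 to 266 in nuclei.

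The genes were also compared by the annotated 3′ end. The 22 genes that end near the stem-loop held 26% to 37.7% of histone UMIs in E13.5 saline libraries, 15.7% to 25.4% at E15.5 and 12.1% to 14.3% at P14. The 22 with an extended end held 36.1% to 42.0%, then 44.6% to 49.1%, then 63.3% to 70.4%. The 23 with no stem-loop found held 22.8% to 32.0%, 25.6% to 38.3% and 15.48% to 22.4%. The share of extended ends was therefore higher at each later age without overlap between the saline groups, and the median log2 changes from E15.5 to P14 were -2.92, -1.49 and -3.06 for the 3 classes.

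In the embryo most captured histone mRNA came from dividing-like cells. Cells were clustered without the histone genes, and clusters that scored highest for S or G2/M markers were called dividing-like. Low-UMI clusters without such markers among their leading genes stayed unnamed. Cluster 3 (2043 cells), with Ms4a7 among its leading genes, also stayed unnamed but was not low in UMIs. Unnamed cells were in neither class and were a larger share at E13.5 than at E15.5. With shared barcodes kept once, E13.5 MIA replicate 2 held 328 cells, 135 of them dividing-like and 40 other microglia. E15.5 saline replicate 3 held 3993 cells, with 458 and 3111 in these classes. Embryonic cluster 11 (1657 cells) was called dividing-like with 0 of these markers among its leading genes. Cluster 2 (2720 cells), led by the cyclin gene Ccnb2, scored highest for microglia. The other microglia may therefore hold dividing cells, which was not tested. Dividing-like cells made up 45.6%, 53.0% and 39.2% of cells in the E13.5 saline libraries and 33.7%, 12.4% and 12.8% at E15.5. The shares after MIA were 46.0%, 41.3% and 47.0%, then 8.35%, 15.0% and 17.3%. At P14 they were 0.225% to 0.992% after saline and 0.234% and 0.0430% after MIA, or 8 to 43 and 2 to 12 cells per library. P14 cluster 9 (934 cells), with Hells and Dtl among its leading genes, was named border macrophages-like. It was left out of the P14 sums, shares and main tests, and whether it held dividing microglia was not tested. Dividing-like cells carried 85.4% to 93.0% of histone UMIs at E13.5 and 55.4% to 84.4% at E15.5, but 4.00% to 33.8% at P14. With shared barcodes kept once, the P14 saline shares of cells were 0.228% to 0.369% (8 to 16 cells), that of E15.5 MIA replicate 3 was 10.9% and that of E15.5 saline replicate 3 was 11.5%. Dividing-like cells then carried 4.03% to 16.1% of histone UMIs at P14, against 55.5% to 84.4% at E15.5 and 85.4% to 93.0% at E13.5.

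Within each of the 12 embryonic libraries, summed histone levels were 5.88 to 14.3 times higher in dividing-like cells than in other microglia. They were 4501 to 6448 CPM in dividing-like cells of E13.5 saline libraries and 3896 to 5243 at E15.5, so that these ranges overlapped, against 576 to 870 and 323 to 632 in the other microglia. At P14 the few dividing-like cells after saline had 5736 to 13372 (6933 to 13372 with shared barcodes kept once) and the other microglia 327 to 484. Because the classes were cut from the same cells, this is a description with no test.

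**Figure D4:**
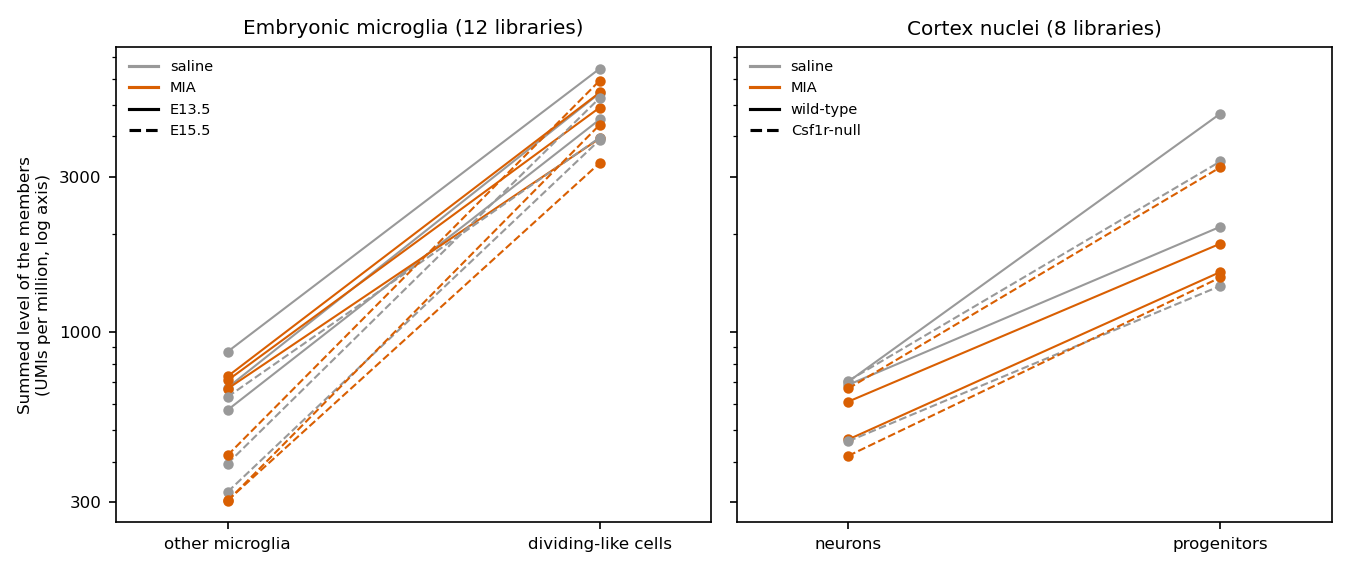
Summed histone level in CPM on a log axis by cell class, with a line joining the classes of each library, for other and dividing-like microglia (solid E13.5, dashed E15.5) and for neuron and progenitor nuclei (solid wild-type, dashed Csf1r-null), grey after saline and orange after MIA. Dividing-like cells lie above other microglia in all 12 embryonic libraries, by 5.88 to 14.3 times, and progenitors above neurons in all 8 nuclei libraries, by 3.00 to 6.66 times.

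The contrast differed between genes. With cells of the 12 libraries pooled, 59 of 62 genes were higher in dividing-like cells, with a median ratio of 11.7, and 56 were higher in all 12 libraries. Hist1h1b was at 904 against 15.7 CPM (57.4 times), Hist1h3c at 156 against 2.83 (55.3 times) and Hist1h2ap at 762 against 20.0 (38.1 times). Hist1h4d (411 against 31.8) and Hist1h1e (383 against 50.1) were less unequal. The pooled ratio was below 1 for Hist3h2a (0.717), Hist3h2ba (0.951) and Hist1h2bc (0.921), but the pooled classes hold the 2 ages in different proportions, and within libraries these genes differed. Hist3h2a was lower in dividing-like cells in 11 of 12 libraries, with a median ratio of 0.737. Hist3h2ba was higher in 9 of 12, with a median of 1.23 (0.845 to 10.4). Hist1h2bc was lower in all 6 E13.5 libraries (median 0.521) and higher in 5 of 6 at E15.5 (median 1.19). By family the median ratios were 12.4 for H1, 16.6 for H2A, 13.2 for H2B, 11.3 for H3 and 8.34 for H4.

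Captured levels were highest in cells with G2/M scores. With phases called from S and G2/M gene lists that hold no histone gene, summed levels had medians over the 12 embryonic libraries of 554 CPM in G1, 1798 in S and 5823 in G2/M, in that order in 12 of 12 libraries. Within dividing-like cells the medians were 530, 2864 and 6471, again ordered in 12 of 12. At P14, G2/M was highest in 6 of 6 libraries, at a median of 7804 against 363 in G1 and 344 in S. The order was not the same outside dividing-like cells. In other microglia of the embryo G2/M was highest in 12 of 12 libraries (medians of 584 in G1, 445 in S and 1276 in G2/M), but S exceeded G1 as well in 2 of 12. In other microglia at P14 the medians were 364, 336 and 347, and G2/M was highest in 3 of 6. Phase was called from the same cells and is given as a description.

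The age comparison was repeated within each class, for dividing-like cells over the 12 embryonic libraries and for other microglia over all 18. Over all microglia of the same 12 libraries, 30 of 62 genes fell and 0 rose, where 8.94% of all genes fell and 8.57% rose, with a median of -1.21. Among dividing-like cells from E13.5 to E15.5 the median was -0.27, and 0 of 60 genes fell and 1 rose, where 1.76% of all genes fell and 2.49% rose. The gene that rose was Hist3h2ba (log2 change 1.02 ± 0.19, edgeR adjusted p = 0.0132). Among the other microglia, 5 of 58 fell and 1 rose, where 10.2% of all genes fell and 11.6% rose. Hist1h2bk (-2.42), Hist1h4a (-1.97), Hist1h3a (-1.42), Hist1h2bc (-1.13) and Hist1h1c (-0.78) fell, and Hist3h2ba rose (1.05). From E15.5 to P14 in other microglia, 27 of 58 fell and 2 rose, where 23.1% of all genes fell and 23.1% rose, with a median of -1.24. Hist2h3c1 (1.13) and Hist1h4d (0.79) rose there, so that Hist1h4d had the opposite sign from that over all microglia.

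Genes that act with histone supply moved with age in part. Of all genes tested, 11.1% fell and 13.7% rose by E15.5, and 26% fell and 24.8% rose by P14. Of 39 S phase genes, 35 fell by E15.5 and 0 rose (median -1.07), and of 50 G2/M genes 15 fell and 0 rose (median -0.92). By P14, 35 and 47 fell, while Cdca7 (0.59) and Lbr (0.97) rose. Of 19 genes for the transcription and processing of histone mRNA, 10 fell by E15.5 (median -0.48) and 8 by P14 (median -0.20). Of 24 histone chaperones, which carry histones to DNA, 14 fell and Cabin1 (0.28) and Ubn1 (0.37) rose by E15.5, and 16 fell by P14. Of 11 replication-independent variants, 0 passed by E15.5 in edgeR, with 2 at an unadjusted p below 0.05, and 10 fell by P14 (median -1.48). These lists were chosen with earlier results of these data known.

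The strongest of these at E15.5 were the helicase Hells (log2 change -1.47 ± 0.19, edgeR adjusted p = 8.4e-05), the DNA clamp Pcna (-1.45 ± 0.23), the histone chaperone Nasp (-1.13 ± 0.16), Mcm2 (-1.37 ± 0.21), Ccne2 (-1.73 ± 0.31) and the cleavage factor Cstf2 (-0.76 ± 0.13). Slbp, which binds the stem-loop, was at 99.4 ± 9.0 (SD, n = 3) CPM at E13.5, 70.0 ± 11.4 (n = 3) at E15.5 and 72.4 ± 5.68 (n = 4) at P14. It fell by E15.5 (-0.48 ± 0.12, edgeR adjusted p = 0.00896), a call lost without E13.5 saline replicate 2 and a change that was 0.14 in dividing-like cells. Its change by P14 did not pass (-0.20, adjusted p = 0.154) and had the opposite sign in other microglia (0.26), with library totals (0.047) and without E15.5 saline replicate 1 (0.00054). Npat was at means of 20.7, 16.5 and 22.7 and passed at neither step (adjusted p = 0.256 and 0.316). Dtl (-4.82 ± 0.21), Chaf1a (-3.83 ± 0.32), Cenpa (-3.38 ± 0.45), E2f1 (-3.17 ± 0.23) and H2afx (-2.85 ± 0.39) were among those that fell by P14. Slbp and Npat thus changed far less than the summed histone level.

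The MIA comparison asked whether inflammation of the dam altered these genes. In microglia, with the filter on low counts, 0 histone genes passed over all microglia at any age or within dividing-like cells or other microglia of the embryo, by edgeR or DESeq2, and 0% of all genes tested passed in each comparison. With no filter Hist1h2ap passed in E15.5 dividing-like cells (log2 difference 1.06, against 1.08 ± 0.86 with the filter), where 0.0732% of all genes were higher. It was there at 142, 600 and 98.1 CPM after saline and 96.1, 1428 and 213 after MIA, so that MIA replicate 2 alone lay above the saline libraries. Without that library the filtered difference was -0.83 ± 0.64. At E13.5, 62 genes were tested, 3 had an unadjusted p below 0.05 (4.84%, against 1.13% of all genes), and the median log2 difference was -0.16, also with shared barcodes kept once. The largest positive difference was that of Hist1h2ag (0.41 ± 0.29, 95% interval -0.16 to 0.98), at 12.1, 11.6 and 5.12 CPM after MIA. The largest negative difference was that of Hist1h4d, at 211, 254 and 231 after MIA (-0.60 ± 0.20, -1.0 to -0.20, edgeR adjusted p = 1). The E13.5 MIA values of Hist1h4d lay within or below the range of the saline libraries, 228 to 436. Hist1h1b, at 437, 465 and 521 after MIA, differed by -0.24 ± 0.14 (-0.52 to 0.05).

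At E15.5, 60 genes were tested, 5 had an unadjusted p below 0.05 (8.33%, against 44 or 0.336% of 13099 genes), and 54 lay below 0 with a median of -0.53, against 0.01 over all genes. The medians of the G2/M and S phase genes were -0.79 and -0.34 there and -0.08 and 0.16 within dividing-like cells. The median of the histone genes was -0.17 without E15.5 saline replicate 1, the library with the highest share of dividing-like cells, and -0.30 without MIA replicate 1, the library with the lowest share. By replicate number, the summed level after MIA was 623 against 2156 CPM in replicate 1, 1405 against 1235 in replicate 2 and 1053 against 940 in replicate 3. With shared barcodes kept once, replicate 3 had 886 against 908. Within dividing-like cells the median was -0.02 over 59 genes (1 unadjusted or 1.69%, against 0.462% of all genes, and 31 below 0) and within other microglia -0.44 over 47 (2 unadjusted or 4.26%, against 0.303%). Hist1h1b after MIA was at 102, 179 and 227 CPM, a difference of -0.79 ± 0.45 (-1.67 to 0.09) over all microglia and -0.02 ± 0.19 (-0.38 to 0.35) within dividing-like cells. Hist1h4f had the largest negative difference (-1.50 ± 0.63, -2.74 to -0.26), at 0.0926, 0.213 and 0.515 after MIA. Hist1h2ap had the largest positive difference (0.72 ± 1.05, -1.35 to 2.78) and turned to -1.38 without MIA replicate 2. With shared barcodes kept once, the median over all microglia was -0.55, within dividing-like cells 0.05 and within other microglia -0.44, and Hist1h1b differed by -0.92 ± 0.44 over all microglia. The difference of the MIA response between E15.5 and E13.5, tested as an interaction, was past the threshold for 0 of 62 genes and 0% of all genes, with 0 at an unadjusted p below 0.05 and 0 in DESeq2.

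At P14, 47 genes were tested, 6 had an unadjusted p below 0.05 (12.8%, against 3.85% of all genes) and the median was -0.23, but it was -0.12 with shared barcodes kept once, -0.65 without MIA replicate 1 and 0.03 without MIA replicate 2. Hist1h2ap, at 68.7 and 9.55 CPM after MIA, differed by 1.88 ± 0.62 (0.66 to 3.11, edgeR adjusted p = 0.92) and by -0.17 without MIA replicate 1. Hist1h1a had the largest negative difference, at 1.49 and 0.494 (-1.69 ± 0.56, -2.79 to -0.60, adjusted p = 0.92), and Hist1h1b was at 14.6 and 3.59 (-1.60 ± 0.68, -2.93 to -0.27). With shared barcodes kept once, Hist1h2ap differed by 2.46 ± 0.73, Hist1h1a by -1.04 ± 0.41 and Hist1h1b by -0.73 ± 0.47 (edgeR adjusted p = 0.924 for each). The median of the G2/M genes was -0.94 and became -0.40, and that of the S phase genes was -0.15 and became -0.04. The libraries with low Hist1h1b were also those with few dividing-like cells, down to 0.0430% in MIA replicate 2, and the part of this share in the difference was not tested. In data simulated on these libraries the test recovered 71% of genes changed 2-fold and 95% of those changed 4-fold at P14, but 20% and 84% at E15.5. The changed genes were drawn at random from all genes tested, so these rates do not describe the histone genes in particular. With 100 genes changed at each fold, the adjusted threshold was easier to pass than where few genes change. Libraries were simulated as independent, without shared barcodes.

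In nuclei of E15.5 cortex the composition of histone ends was different. Summed levels over all nuclei were 1023 and 1267 CPM in wild-type saline, 646 and 895 in wild-type MIA, 589 and 1130 in Csf1r-null saline and 571 and 1062 in Csf1r-null MIA, with replicate 1 before replicate 2. Every replicate 2 exceeded its replicate 1. The replicate number also marked the version of Cell Ranger, the gene list and the barcode filter, so these cannot be told apart. Hist3h2ba was prominent, at 241 and 266, 167 and 184, 176 and 166, and 157 and 186 in the same order, against 5.23 to 15.3 in saline microglia. Hist3h2a was at 65.5 to 89.4. Other main genes were Hist1h2ap (22.4 to 340), Hist1h2ae (36.3 to 116), Hist1h1b (35.6 to 90.7), Hist1h1e (34.8 to 81), Hist1h4d (18.2 to 34.7) and Hist1h3c (4.22 to 16.4). Nuclei and whole cells differ in the RNA they hold, so levels across the 2 kinds of library are set side by side without a test.

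Progenitor nuclei held more histone mRNA than neurons. Progenitors (apical, intermediate and dividing clusters) made up 17.3% to 27.1% of nuclei and 32.3% to 52.4% of histone UMIs. Their summed level was 1386 to 4690 CPM against 416 to 708 in neurons, and within libraries the ratio was 3.00 to 6.66. Pooled over libraries, 56 of 59 genes were higher in progenitors (median ratio 7.04), 48 of them in all 8 libraries. Hist1h2ap was at 572 against 47.0 and Hist1h1b at 279 against 21.6. The chromosome 11 genes were the reverse in 8 of 8 libraries: Hist3h2ba was at 99.7 in progenitors and 206 in neurons, and Hist3h2a at 30.1 and 85.8. The family medians were 9.30 for H1, 8.12 for H2A, 7.39 for H2B, 6.84 for H3 and 3.51 for H4. Medians by phase rose from 638 in G1 to 1628 in S and 2180 in G2/M, in this order in 8 of 8 libraries. The library labelled wild-type saline replicate 1 held 85% of nuclei cluster 0 and 96% of cluster 16. Without cluster 0 the ratio of progenitors over neurons in that library was 3.395 in place of 3.06.

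Hist1h2ap differed widely between replicate numbers. Over all nuclei it was at 93.8 and 326 in wild-type saline, 22.4 and 96.5 in wild-type MIA, 32.6 and 340 in Csf1r-null saline and 22.6 and 296 in Csf1r-null MIA, replicate 1 first. Of the 48 genes with a mean of at least 1, Hist1h1b, Hist1h2ap, Hist1h3d and Hist1h3b (named after their values were seen) were higher in every replicate 2 than in any replicate 1. That is 8.33% of them, against 4.32% of the 13575 genes with such a mean, of which 16.5% were lower in every replicate 2. Without the 2 libraries that went against their labels it was 11 of 47 (23.4%), against 8.59% of all genes.

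Without the replicate number in the fit and with the filter on low counts, MIA changed no histone gene past the threshold in nuclei, and 0% of all genes passed in each nuclei comparison. DESeq2 also called 0. With no filter, 2 of 66 genes passed in all wild-type nuclei (0.253% of all genes), 9 of 64 in wild-type progenitors (0.580%) and 2 of 64 in wild-type neurons (0.429%), all lower after MIA, and 1 of 66 was lower in Csf1r-null than in wild-type saline nuclei (0.267%). The percentages are the shares of all genes that passed in the same direction. Over all wild-type nuclei, 54 genes were tested, 6 had an unadjusted p below 0.05 (11.1%, against 5.49% of all genes), and 48 lay below 0 with a median log2 difference of -0.42. It was -0.70 without the 2 libraries that went against their labels and -0.31 without clusters 0 and 16. The medians of the replication-independent variants, the G2/M genes and the S phase genes were -0.39 (5 of 11 unadjusted), -0.23 (13 of 50) and -0.22 (1 of 39). In Csf1r-null nuclei none had an unadjusted p below 0.05, and the median was -0.00 (0.25 without them). The difference between genotypes was tested as an interaction and passed for 0 of 54 genes (0 unadjusted, median -0.40). Without the 2 libraries its median was -0.91. Both are replicate 2, so without them wild-type MIA and Csf1r-null saline hold replicate 1 alone. In every such fit that lacks the replicate number, the difference and the replicate number cannot be told apart. Hist1h2ap in Csf1r-null nuclei differed by 2.39 without the 2 libraries, and by 0.037 once the replicate number was also in the fit. Hist3h2ba after MIA differed by -0.61 ± 0.20 (95% interval -0.99 to -0.23, edgeR adjusted p = 0.886) in wild-type nuclei and by -0.70 ± 0.29 (adjusted p = 0.989) without the 2 libraries. Hist1h1b differed by -0.13 ± 0.46 in wild-type and 0.01 ± 0.46 in Csf1r-null nuclei, and by -0.52 ± 0.39 and 0.79 ± 0.40 without them. The largest positive differences were those of Hist2h3c2 (0.63 ± 0.62) in wild-type and Hist1h3a (0.76 ± 0.50, -0.22 to 1.75) in Csf1r-null nuclei, and the largest negative ones those of Hist1h2ap (-1.94 ± 1.42, -4.72 to 0.83) and Hist1h2ai (-1.22 ± 0.77, -2.73 to 0.29). Without the 2 libraries Hist1h3a differed by 0.98 ± 0.70 in Csf1r-null and Hist1h2ap by -3.36 ± 1.60 in wild-type nuclei.

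Loss of Csf1r was compared in saline nuclei. Of 54 genes, 0 passed and 12 had an unadjusted p below 0.05 (22.2%, against 5.82% of all genes), all lower in Csf1r-null nuclei, with a median of -0.51. The medians of the replication-independent variants, the G2/M genes and the S phase genes were -0.56 (6 of 11 unadjusted), -0.50 (22 of 50) and -0.38 (10 of 39). The median of the histone genes was -0.38 without clusters 0 and 16, of which the library labelled wild-type saline replicate 1 held most. The median was -1.13 without the 2 libraries that went against their labels, which leaves 1 Csf1r-null saline library. That library is replicate 1 while wild-type saline holds both numbers, so genotype and replicate number cannot be told apart in this value. Hist1h3i had the smallest p (-1.38 ± 0.29, edgeR adjusted p = 0.836), followed by Hist1h2an (-1.59 ± 0.42) and Hist1h3e (-1.05 ± 0.27).

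Within progenitors the call depended on the replicate number. In wild-type progenitors 0 of 47 genes passed without it, 11 had an unadjusted p below 0.05 (23.4%, against 8.83% of all genes), all lower after MIA, and the median was -0.64 (-0.72 without the 2 libraries that went against their labels). The medians of the replication-independent variants, the G2/M genes and the S phase genes were -0.29, -0.30 and -0.22. Once the fit held the replicate number as a block, 8 of 47 genes fell and 0 rose, where 2.10% of all genes fell. Samples of the same number deviated together (correlations of 0.496 to 0.682), and the number marks the processing as above, so the block is also given. Hist1h2ap was at 322 and 1868 CPM after saline and 92.5 and 292 after MIA, replicate 1 first (-2.29 ± 0.28 with the block, edgeR adjusted p = 0.000385). Hist1h2ae was at 312 and 564 against 150 and 256 (-1.16 ± 0.16, adjusted p = 0.000983). In both genes each MIA library lay below the saline library of its own number.

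The other 6 genes were Hist1h4h (37.2 and 85.8 CPM after saline, 21.8 and 19.3 after MIA, -1.53 ± 0.26 with the block), Hist1h3e (31.5 and 47.3 against 12 and 16.7, -1.52 ± 0.25), Hist1h3c (46.0 and 80.8 against 22.5 and 29.4, -1.32 ± 0.23), Hist1h1d (54.3 and 80.8 against 34.5 and 24.2, -1.21 ± 0.24), Hist2h2bb (24.8 and 48.0 against 11.2 and 16.2, -1.44 ± 0.29) and Hist1h2ad (7.76 and 19.6 against 2.18 and 5.27, -1.94 ± 0.44). They span the H1, H2A, H2B, H3 and H4 families. Hist1h1b did not pass with the block, at 251 and 473 against 245 and 273 (-0.47 ± 0.17, edgeR adjusted p = 0.147). Without the 2 libraries that went against their labels, the wild-type MIA and Csf1r-null saline groups hold 1 library each, which is assumed to vary like the other groups, and 1 residual degree of freedom remains. In that fit the median was -0.34 and 4 of 48 genes passed, where 0.454% of all genes fell: Hist1h2ap (-1.56 ± 0.21), Hist1h3e (-1.57 ± 0.39), Hist1h3c (-1.12 ± 0.30) and Hist1h2ae (-1.0 ± 0.20).

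**Figure D5:**
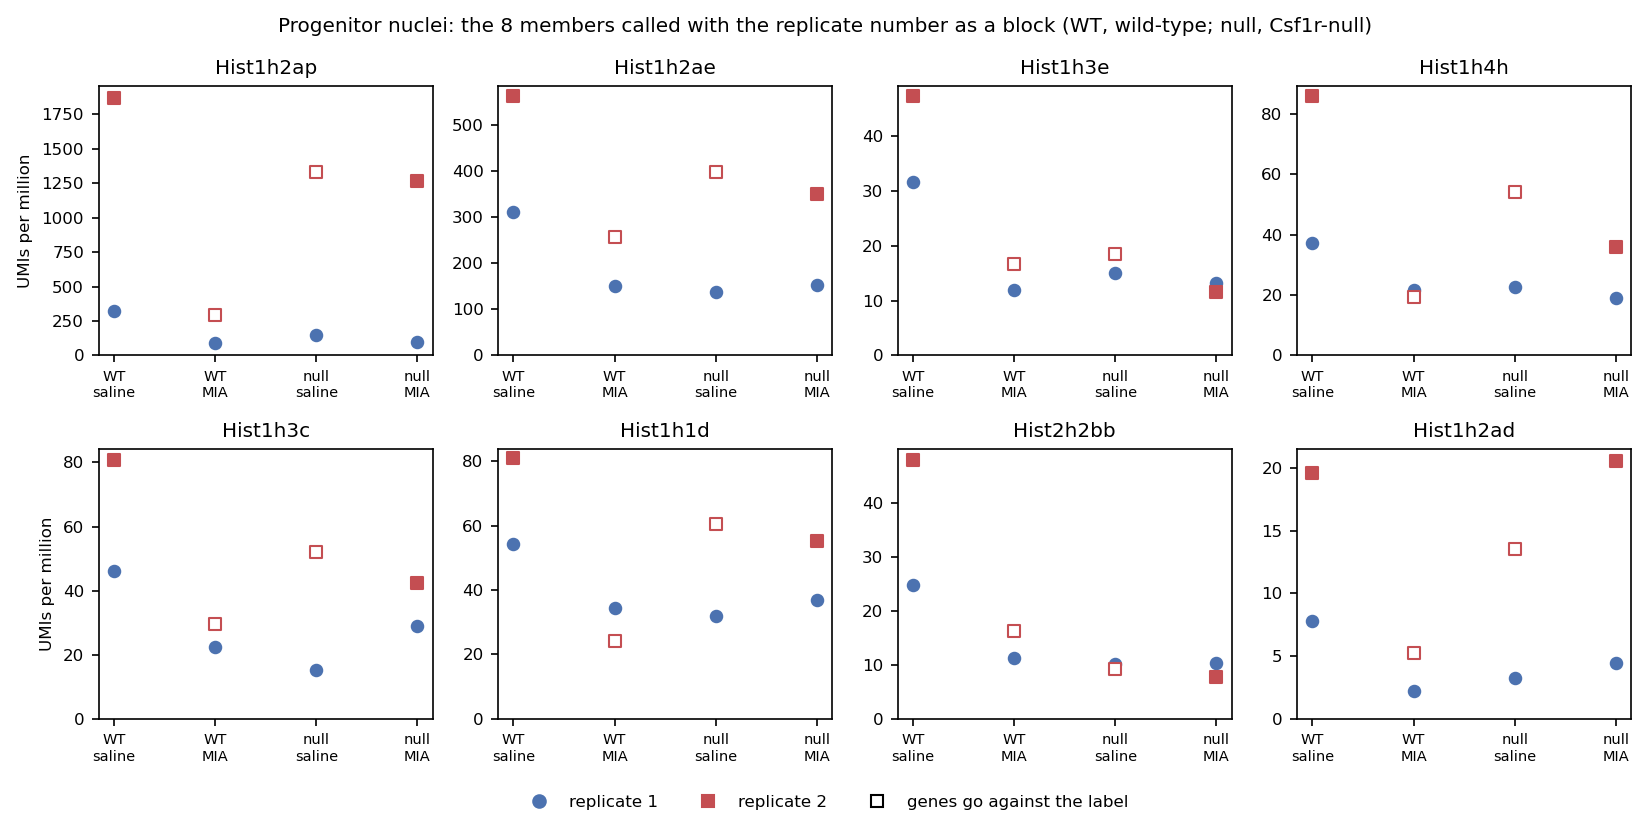
Level in CPM (linear axes from 0) of the 8 histone genes lower after MIA in wild-type progenitors once replicate number entered as a block, in progenitors of each of the 8 nuclei libraries, by group. Circles are replicate 1, squares replicate 2 and open squares the 2 libraries that went against their labels, and in wild-type progenitors Hist1h2ap lies at 322 and 1868 after saline and at 92.5 and 292 after MIA.

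In Csf1r-null progenitors 0 of 47 genes passed, with or without the block. Without the block, 2 had an unadjusted p below 0.05 (4.26%, against 1.17% of all genes), Hist1h2an and Hist1h2bj, both higher after MIA. The median in that fit was -0.01 (0.32 without the 2 libraries). Hist1h2ap was there at 146 and 1330 after saline and 97.0 and 1266 after MIA, and Hist1h2ae at 139 and 397 against 153 and 349. In both genes the groups overlapped. By replicate number, Hist1h2ap was lower after MIA in both pairs, as in wild-type progenitors, and Hist1h2ae was higher in replicate 1 and lower in replicate 2. Within progenitors the difference of the MIA response between genotypes was not tested. Progenitors were 17.3% and 18.1% of nuclei in wild-type saline and 21.6% and 27.1% in wild-type MIA, so the lower level within progenitors went with a higher share of them, and the part of their make-up in it was not tested. In neurons 0 of 44 genes passed in either genotype, with medians of -0.34 in wild-type (2 unadjusted or 4.55%, against 5.39% of all genes; 0.05 without wild-type MIA replicate 1) and -0.11 in Csf1r-null nuclei (0 unadjusted). Without the 2 libraries these medians were -0.55 and 0.36, again with 0 genes past the threshold. Cluster 0, whose cells were striatal neurons-like, belonged to the neurons and made up 21.5% of them in wild-type saline replicate 1, against 0.227% to 1.05% in the other 7 libraries. Without it the medians were -0.24 (1 of 42 unadjusted) and -0.15 (0 unadjusted), and with no filter 1 gene passed in wild-type neurons in place of 2, where 0.108% of all genes were lower. In the neurons of all libraries the replication-independent variants had medians of -0.41 in wild-type (6 of 11 unadjusted) and 0.08 in Csf1r-null nuclei.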

How the data were processed

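The sorted microglia and cortical nuclei were profiled with 10x Chromium 3′ chemistry. The authors deposited raw UMI counts per gene and barcode, aligned to mm10 with Cell Ranger 3.1.0 according to the labels' processing notes. The deposited matrices of nuclei replicate 2 name another version in their headers and hold called barcodes only, while replicate 1 lists every barcode. From these counts, a nucleus was kept from 500 UMIs and 200 detected genes upwards. The floor for a sorted cell was 500 genes, with a mitochondrial share of no more than 20%. The top-scoring cells by Scrublet, 0.8% per 1000 cells, were removed as doublets. Cells were clustered without the histone genes and Csf1r (scanpy 1.11.5, 2000 variable genes, 30 components, 20 neighbours, Leiden resolution 1). Clusters were named from preset markers. All microglia comprised dividing-like, other and unnamed kept clusters. Among sorted cells, clusters named as another cell type or with a microglia score below -1 were left out. Counts were summed per library and class and tested over all genes with edgeR 4.0.16 (TMM, filterByExpr, quasi-likelihood F test, Benjamini-Hochberg threshold 0.05), after the script was tested on simulated data. Each MIA comparison was fitted within its age, age over 18 libraries (dividing-like cells over the 12 embryonic ones), and nuclei over 8. SE is the log2 change divided by the square root of F, and intervals are 1.96 SE on either side. DESeq2 1.42.0, other size factors, no filter, a replicate block, other cell classes and leaving out libraries were alternatives.

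The study itself fitted NEBULA to nuclei and DESeq2 to pseudobulk sums. The labels do not say that replicates came from separate litters, so p-values measure the spread between these libraries. For the nuclei, the paper used fewer dams than there are libraries, with wild-type littermates as controls. Libraries of both genotypes could therefore share a dam. Litter was not in the fits, which treated the nuclei libraries as independent. The members and lists were chosen with earlier results of these data known. The genes named were those past the threshold, or, where over 12 passed, the 2 with the smallest p per family and direction; the most abundant member of each family in microglia and in nuclei; the largest rise and fall in each MIA comparison; Hist1h1b; at most 6 companion genes per age comparison; and Slbp and Npat. Members and lists were described by counts and medians only. At E15.5 the deviations of same-numbered libraries correlated at 0.588, 0.162 and 0.586, and those of saline replicate 2 and MIA replicate 3 at 0.174.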

Additional observations from a re-analysis of the deposited data

Results flagged for a closer look

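Within the 4 P14 saline libraries, a library stood apart from the other 3 by Dixon's criterion for 7 values, out of 33 groups tested, where chance gives about 1 in 20. That rate does not hold for Hist1h2ah, Hist1h3g and Hist1h4f, which were at 0 in 3 of the 4 libraries and so had to stand apart. In replicate 3-male, Hist1h2bb was at 1.42 CPM (UMIs per 1000000) against 0.937 to 0.990, and Hist1h2ah and Hist1h3g were at 0.0374 and 0.112 against 0. In replicate 3-female, Hist1h4f was at 0.0446 against 0. In replicate 1, Hist3h2a was at 35.0 against 45.4 to 47.3 and summed H2A at 78.1 against 111 to 115. In replicate 2, summed H4 was at 146 against 97.4 to 103. Hist1h2ah and Hist1h4f each rest on 1 UMI and Hist1h3g on 3.

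For Hist1h3a, wild-type nuclei lay lower after MIA (1.71 and 1.07 against 2.24 and 2.05 CPM) and Csf1r-null nuclei higher (1.43 and 2.84 against 1.11 and 1.42). The wild-type means differed by -0.76 CPM. Each MIA library lay below the saline libraries in wild-type and above them in Csf1r-null nuclei, there by as little as 1.43 against 1.42. The fitted differences were -0.68 and 0.76 on the log2 scale, and the interaction was -1.44 ± 0.70 (edgeR adjusted p = 1). Without the 2 libraries that went against their labels these were -0.42, 0.98 and -1.40 ± 0.96 (adjusted p = 0.998).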

How the results depend on the processing

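With no filter on low counts, 1 member passed in E15.5 MIA dividing-like cells (Hist1h2ap, 1.06, above the saline libraries in MIA replicate 2 alone), 2 in wild-type nuclei MIA, 1 in Csf1r-null against wild-type saline nuclei, 9 in wild-type progenitors and 2 in wild-type neurons (1 without cluster 0), where the filtered fits called 0. In these unfiltered fits 0.0732% to 0.580% of all genes passed in the same direction. The E15.5 against E13.5 count of 34 was 6 in other microglia only, 1 in dividing-like cells of the 12 embryonic libraries (30 in all microglia of these 12), and 15 to 44 with a library left out (16 without E13.5 saline replicate 3, 22 without E15.5 saline replicate 2, 15 without E15.5 saline replicate 3). The P14 against E15.5 count of 56 was 29 in other microglia only and 47 to 56 with a library left out. The MIA and genotype counts were 0 to 0 with a library left out. The ratio of progenitors over neurons had a median over nuclei libraries of 5.37 (4.37 to 10.9) without Hist3h2ba, against a range of 3.00 to 6.66 with it.

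With the replicate block, wild-type progenitors had 8 calls (4 without the 2 libraries that went against their labels), and the pairing changed no other call to a count above 0. Same-numbered E13.5 libraries correlated at 0.29, 0.043 and 0.388 and those at P14 at 0.285 and 0.197. Some of them also shared barcodes, against a median of 0.1625% over all pairs. The shares of the smaller library were 23.93% for E13.5 replicate 1, 8.8% for E13.5 replicate 2 and 2.008% for P14 replicate 1. Whether same-numbered libraries came from the same batch was not tested.

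Of the values of named genes under all alternatives, 1150 kept direction and side of the threshold, 104 lost their call, 6 gained one and 26 changed sign. Of the lost calls, 94 were from E13.5 to E15.5, with Hist1h3c losing its call in 23 of 30 alternatives, Hist3h2a in 22, Hist1h2ap in 9 and Hist3h2ba in 5, and 10 were by P14. Hist1h2ap after MIA turned to -1.38 at E15.5 without MIA replicate 2 (-1.38 to 1.38 with a library left out), to -0.17 at P14 without MIA replicate 1 (-0.17 to 2.70), to 0.08, 0.05 and 0.30 at E13.5 without saline replicate 2, saline replicate 3 and MIA replicate 1 (-0.75 to 0.30), and in Csf1r-null nuclei to 2.39 without both libraries, 0.037 with the block added, 0.71 without null MIA replicate 1 and 2.41 without null saline replicate 2 (-3.16 to 2.41). Hist1h1b turned to 0.12 from E13.5 to E15.5 in dividing-like cells, to 0.19 and 0.10 in wild-type nuclei without MIA replicate 1 and saline replicate 2 (-0.52 to 0.19), and in Csf1r-null nuclei to -0.012 with DESeq2's size factors, -0.014 in DESeq2, -0.01 without wild-type MIA replicate 2 and -0.51 without null saline replicate 1 or null MIA replicate 2 (-0.51 to 0.81). Slbp turned to 0.14 in dividing-like cells by E15.5, and by P14 to 0.047 with library totals, 0.26 and 0.27 in other microglia and 0.00054 without E15.5 saline replicate 1 (-0.31 to 0.00054). Hist1h4d turned to 0.79 by P14 in other microglia. The cause of these changes was not tested. In simulated data 22% of genes changed 2-fold and 70% of those changed 4-fold were recovered for wild-type MIA nuclei. The changed genes were drawn at random from all genes tested, not from the histone genes. Many genes were changed at once, which makes the adjusted threshold easier to pass than where few change.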
